A study of Mus musculus with 4 samples.

Results

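The genes described here make cholesterol and fatty acids, carry and store sterols, or control those steps. They were chosen by name, with earlier results of these data known. In a table of 24689 mouse genes 42 symbols were looked up, and all 42 had a row. They fall into mevalonate and isoprenoid enzymes, squalene to cholesterol enzymes, SREBP control, sterol carriage and esterification, fatty acid synthesis, chain elongation, desaturation and activation, and the opposing LXR export arm. RNA was sequenced from HT-22 cells, an immortalized mouse hippocampal line, in 2 libraries of Pja2-induced cells and 2 libraries of control cells, all within passages 21 to 24. Pja2 encodes a RING-type ubiquitin ligase, and the series text calls the induced cells Pja2/+ with a sense Pja2. The induced samples carry the tag Pja2-pb in their titles and the controls are called both uninduced and WT, so whether both groups came from the same line is not given. How Pja2 was induced, and whether the replicates of a group were separate cultures, is not given either, so p-values measure only the spread between these libraries, which may be technical.

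Values are normalized reads, that is, read counts scaled between libraries by the authors. Gene read totals were 30080376 and 35262653 in the induced cells and 25787452 and 31010351 in the controls. Pja2 itself had 54829.8 and 54244 normalized reads in the induced libraries, against 6167 and 5881 in the control libraries (9.05-fold higher, log2 fold change 3.18, SE 0.06, adjusted p = 6.36e-05). The cells are labelled hippocampal neurons. Of 14 neuron markers, 8 had a row, and of those Nefl, Prox1, Slc17a7, Stmn2 and Syt1 lay under a mean of 1 CPM (reads scaled to library size), with 1 or more libraries at 0 for each. Syn1 and Tubb3 led them, and the summed level of the 8 was 1913 and 1926 in the induced libraries and 1947 and 1699 in the controls. Gad1, Grin1, Map2, Nefm, Rbfox3 and Snap25 had no row, so their levels are not known. All 9 fibroblast markers had a row, with sums of 404633 and 403496 in the induced libraries and 449956 and 403121 in the controls. Of these 2 (Col3a1 and Dcn) fell, against 1.34% of all tested genes. Uncalled, S100a4 was higher in both induced libraries (85017 and 83317 against 74445 and 75872) and Thy1 lower (2654 and 2403 against 3600 and 2988). Col1a1, Col1a2, Pdgfra and Pdgfrb overlapped between the groups, and Lum reached at most 13.7 in any library. Astrocyte markers summed to 6014 and 6881 in the induced libraries and 5173 and 5102 in the controls. Slc1a3 and Gja1 gave most of that, with Gfap and Slc1a2 at most 9.79 in any library. Aldh1l1 went the other way, with 5.44 and 14.8 in the induced libraries and 57.8 and 65.3 in the controls (log2 fold change -2.63, adjusted p = 0.0618). Aqp4 had no row. Microglia and macrophage markers summed to 1659 and 1755 against 2249.7 and 1899.9. Nearly all of that was Tmem119 (1579 and 1644 against 2184 and 1830). Aif1 reached at most 91.8, and Csf1r, Cx3cr1, Itgam and Ptprc at most 8.35, in any library. Oligodendrocyte and endothelial markers summed to at most 126 in any library. Their part in the lipid results was not tested, and in bulk RNA fewer cells of a type and less RNA per cell cannot be told apart.

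Cells build cholesterol from acetyl-CoA through mevalonate, isoprenoid diphosphates, squalene and lanosterol. When sterols in the endoplasmic reticulum run low, SCAP carries the SREBP transcription factors to the Golgi, where proteases release their active part, and genes of sterol and fatty acid synthesis are transcribed. When sterols are plentiful, INSIG proteins hold SCAP and SREBP back, and oxysterols activate the LXR receptors, which drive export. In the brain cholesterol is made locally, since lipoproteins of the blood do not cross the blood-brain barrier.

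Sterol synthesis genes and most fatty acid genes were lower on average in Pja2-induced cells, and the LXR arm and several SREBP control genes overlapped between the groups. Of the 42 members, 40 passed the filter of a mean of 1 CPM, and 10 of those fell (limma, adjusted p under 0.05 over 13276 genes), against a background of 1.34% of all tested genes that fell. At an unadjusted p under 0.05 there were 27 lower members, against 8.78% of all tested genes. No member was higher at either threshold, against 2.08% of all genes with adjustment and 10.3% without, and limma voom on the reads behind the values called 0 higher and 10 lower. The 10 that fell were Insig1, Fdps, Scd1, Sqle, Cyp51, Nsdhl, Fdft1, Elovl6, Acat2 and Scd2. In the annotation Insig1 (ENSMUSG00000045294) and Cyp51 (ENSMUSG00000001467) lie on chromosome 5, Fdps (ENSMUSG00000059743) and Elovl6 (ENSMUSG00000041220) on 3, and Scd1 (ENSMUSG00000037071) and Scd2 (ENSMUSG00000025203) on 19. Sqle (ENSMUSG00000022351) lies on 15, Acat2 (ENSMUSG00000023832) on 17, Fdft1 (ENSMUSG00000021273) on 14 and Nsdhl (ENSMUSG00000031349) on X. The median log2 fold change (induced minus control) of the 40 was -0.37, against 0.00 over all genes tested, and 36 of 40 lay below 0, against 49.6% of all genes. In 31 of 40 both induced libraries lay below both control libraries, which 25.1% of all genes showed, and in 0 of 40 both lay above, against 26.2%. Members under shared control can move together between libraries, so these counts are not 40 separate observations. The list was also chosen with earlier results of these data known, which limits the contrast with all genes.

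Library by library, the median member lay 0.33 and 0.36 below the mean of the controls on the log2 scale in the induced libraries, and within 0.01 of it in either control library. The control values mirror each other, since they are set against their own mean, and a median over members does not show the spread of single members between replicates, which the values by library give. Summed over all 42 members, normalized reads came to 233547 and 225069 in the induced libraries and to 290386 and 294981 in the controls, so that the induced mean was 78.3% of the control mean. Scd2 is the largest contributor to the sum in each library, and sums carry no test.

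Exons of 14 of the 40 tested members overlap another annotated gene, and the counts do not show how shared reads were assigned. Among the 10 that fell, Insig1, Scd1, Sqle, Nsdhl and Acat2 overlap none. Fdps shares 26.7% of its exon length with Gm43738 on the same strand, which was not analysed here, and Cyp51 shares 3.76% with Akap9, a kinase anchor gene on the opposite strand (log2 fold change -0.19, adjusted p = 0.307). Scd2 and Elovl6 overlap others by less, at 61 and 34 bases. Over the 26 tested members with no overlap the median log2 fold change was -0.27, and 5 fell.

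**Figure D1:**
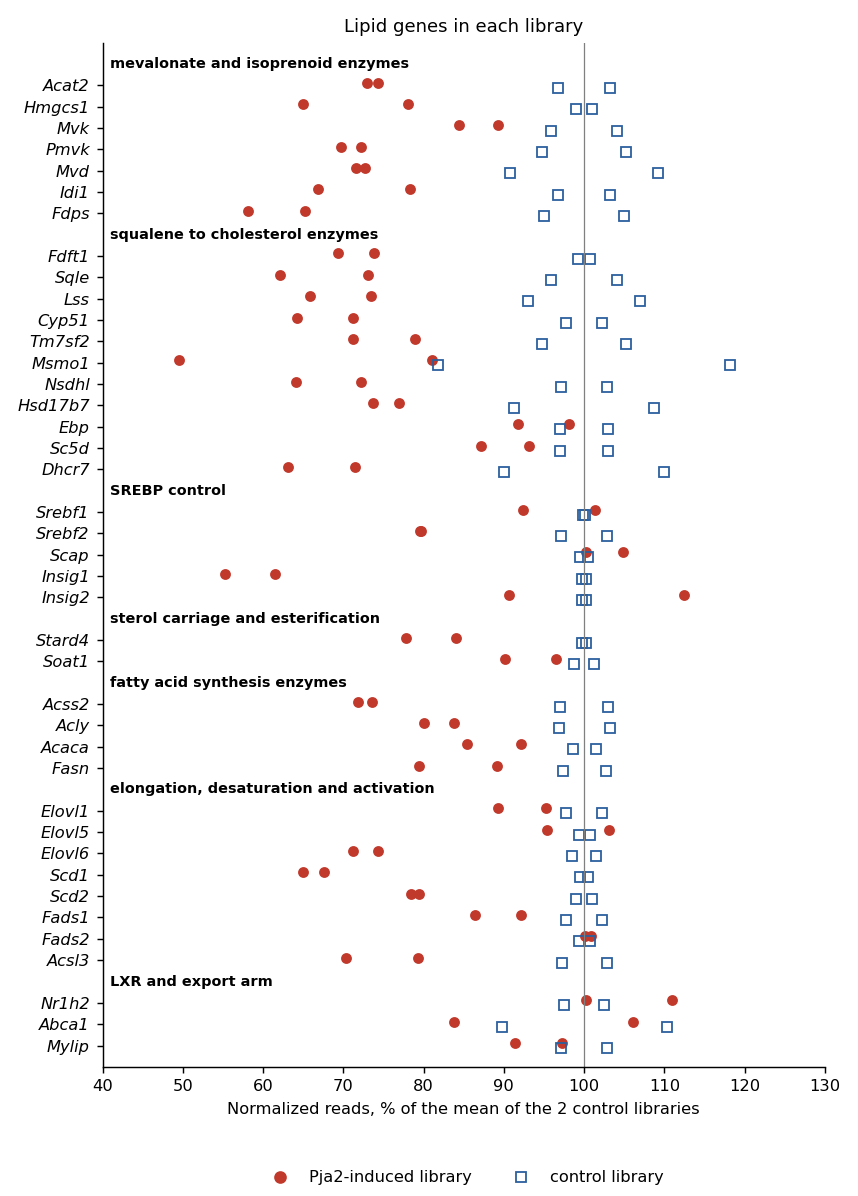
Normalized reads of each tested member in each library, as percent of the mean of the 2 control libraries (x axis), with members grouped by role (y axis). Filled circles are Pja2-induced libraries and open squares control libraries; in 31 of 40 members both circles lie left of both squares, with the lowest circle at 49.5% (Msmo1).

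Promoters are shown for 4 members. Hmgcs1 is an early enzyme of the mevalonate route and did not pass. Insig1 is the member with the lowest log2 fold change, and Insig2, its close relative, did not pass. Cyp51 is a sterol demethylase that fell. Each promoter is 300 bases, from 250 before to 50 after a RefSeq start site on GRCm38.p6, 5′ to 3′ on the gene's strand. Capitals mark TCACNCCAC (the core of a classical sterol response element), CCAAT (the NF-Y box) and GGGCGG (the Sp1 box) on either strand, so that CCAAT read from the other strand appears as ATTGG and GGGCGG as CCGCCC. No base in these 4 windows belonged to matches of different motifs. The table holds 3 start sites for Insig2, and the most upstream is shown.
Hmgcs1 (chr13:119690101-119690400, plus strand): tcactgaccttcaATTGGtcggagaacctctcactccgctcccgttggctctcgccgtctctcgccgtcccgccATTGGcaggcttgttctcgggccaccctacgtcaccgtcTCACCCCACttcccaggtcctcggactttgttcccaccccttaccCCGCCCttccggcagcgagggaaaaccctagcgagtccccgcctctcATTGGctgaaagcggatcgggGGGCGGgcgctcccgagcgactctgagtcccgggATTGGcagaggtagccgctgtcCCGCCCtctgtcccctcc
Insig1 (chr5:28071162-28071461, plus strand): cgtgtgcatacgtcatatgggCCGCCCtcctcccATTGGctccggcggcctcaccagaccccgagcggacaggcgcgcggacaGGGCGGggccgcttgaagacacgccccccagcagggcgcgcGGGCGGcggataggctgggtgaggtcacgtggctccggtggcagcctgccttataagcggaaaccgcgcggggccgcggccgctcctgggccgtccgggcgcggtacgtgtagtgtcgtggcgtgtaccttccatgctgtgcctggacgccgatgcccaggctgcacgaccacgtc
Insig2 (chr1:121332540-121332839, minus strand): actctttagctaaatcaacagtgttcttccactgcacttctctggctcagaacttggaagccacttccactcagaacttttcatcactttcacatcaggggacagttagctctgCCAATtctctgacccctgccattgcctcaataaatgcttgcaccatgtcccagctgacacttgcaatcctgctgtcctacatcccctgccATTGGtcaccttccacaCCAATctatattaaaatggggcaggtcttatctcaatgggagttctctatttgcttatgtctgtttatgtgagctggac
Cyp51 (chr5:4104648-4104947, minus strand): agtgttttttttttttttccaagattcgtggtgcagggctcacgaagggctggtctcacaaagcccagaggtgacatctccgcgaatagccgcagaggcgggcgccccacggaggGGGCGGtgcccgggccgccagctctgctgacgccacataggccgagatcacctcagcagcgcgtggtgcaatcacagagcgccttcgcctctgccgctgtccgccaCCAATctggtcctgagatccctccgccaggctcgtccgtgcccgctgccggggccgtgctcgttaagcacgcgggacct

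The Hmgcs1 window held the sterol response core once, as TCACCCCAC with its first base 137 bases before the start site, beside 4 CCAAT boxes and 3 GGGCGG boxes. Insig1 had 1 CCAAT and 3 GGGCGG boxes, Insig2 had 3 CCAAT boxes and no GGGCGG box in the window shown, and Cyp51 had 1 of each. RefSeq promoters were matched for 34 of the 42 members, and a member or gene was counted if any of its start sites held a match. The sterol response core was found in 1 of 34 members (2.94%) and in 1.38% of 9193 tested genes with a promoter, or 1.44% of all 27025 genes with a promoter. CCAAT was found in 26 of 34 (76.5%), against 44.1% of tested genes and 41.1% of all genes with a promoter. GGGCGG was found in 27 of 34 (79.4%), against 69.6% of tested genes and 38.2% of all genes with a promoter. A match is a description of letters and not a bound site, and other members may carry such elements outside these windows.

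The 7 mevalonate and isoprenoid enzymes were all lower on average, with log2 fold changes of -0.70 to -0.20 and a median of -0.46. Of these 2 fell and 5 did not pass, and both induced libraries lay below both controls in 7 of 7, against 25.1% of all genes. Fdps, which joins isoprene units into farnesyl diphosphate, had 7449 and 6630.0 normalized reads in the induced libraries, against 10843 and 11981 in the controls (log2 fold change -0.70, SE 0.09, adjusted p = 0.0201). Its induced libraries both lay far below its controls, and the induced mean was 61.7% of the control mean. Acat2, a cytosolic thiolase that starts the route from acetyl-CoA, had 7157 and 7281 in the induced libraries, against 9489 and 10115 in the controls (-0.44, SE 0.06, adjusted p = 0.0275). Its near-identical neighbour Acat3, with which it can share reads, had 842 and 777 against 1112 and 1107 (-0.46, adjusted p = 0.0595), so the Acat2 value is uncertain.

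Hmgcs1, which makes HMG-CoA, had 10936 and 9106 in the induced libraries and 13878 and 14151 in the controls, 71.5% of the control mean, and missed the threshold (adjusted p = 0.0596). The induced libraries of Hmgcs1 stood further apart from each other (SD 1294) than its controls (SD 193), although the groups did not overlap. Pmvk, a phosphomevalonate kinase, had 861 and 892 in the induced libraries and 1172 and 1301 in the controls (-0.49, adjusted p = 0.0536). Idi1, the isopentenyl diphosphate isomerase, had 3086 and 2635 against 3811 and 4065 (-0.46, adjusted p = 0.0654), and Mvd, the decarboxylase before it, had 1429 and 1407 against 1784 and 2145 (-0.46, adjusted p = 0.0866). Mvk, the mevalonate kinase, lay closest to the controls of the 7, at 86.9% of their mean (-0.20, adjusted p = 0.257).

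All 11 enzymes from squalene to cholesterol had a log2 fold change below 0, from -0.63 to -0.08 with a median of -0.52. Of these 4 fell and 7 did not pass, and both induced libraries lay below both controls in 10 of 11, against 25.1% of all genes. Sqle, the squalene epoxidase at a control point of the pathway, had 8386 and 7124 in the induced libraries and 10999 and 11937 in the controls (-0.57, SE 0.10, adjusted p = 0.0399). Cyp51, which removes a methyl group of lanosterol, had 8086 and 7291 in the induced libraries and 11089.8 and 11605 in the controls (-0.56, SE 0.07, adjusted p = 0.0226). Nsdhl, a sterol dehydrogenase that acts on the other methyl groups, had 3549 and 3152 in the induced libraries and 4776 and 5058 in the controls (-0.56, SE 0.08, adjusted p = 0.0297). In all of these the higher induced library was still well below the lower control library.

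Fdft1, the squalene synthase, had 2729 and 2559.6 in the induced libraries and 3721 and 3668 in the controls (-0.48, SE 0.07, adjusted p = 0.0269). Of its exon length 18.3% overlaps Ctsb on the opposite strand, and the library kit does not mark strand. Ctsb, a lysosomal protease gene that is no member and is named for that overlap, had 13876 and 14184 in the induced libraries and 14278 and 14759 in the controls (-0.05, adjusted p = 0.689). Lss, the lanosterol synthase, had 2929 and 2629 in the induced libraries and 3713 and 4269 in the controls, just short of the threshold (-0.52, adjusted p = 0.0528). Dhcr7, which completes cholesterol, had 1218 and 1075 against 1874 and 1533 (-0.57, adjusted p = 0.0784), with controls far apart from each other.

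Msmo1, the sterol methyl oxidase, had the widest spread of the pathway. Its libraries held 3922 and 2395 normalized reads in the induced cells and 3957 and 5714 in the controls, so that 1 induced library reached almost the level of 1 control (-0.63, SE 0.27, adjusted p = 0.278). Leaving out induced replicate 1 moved its log2 fold change to -0.99, and leaving out induced replicate 2 moved it to -0.28. Hsd17b7, a sterol ketone reductase, stood at 75.3% of its control mean (adjusted p = 0.118) and Tm7sf2, a sterol reductase with the fewest reads of the tested members, at 75.1% (adjusted p = 0.214). Of the Tm7sf2 exon length 12.1% overlaps Vps51 on the same strand, so the Tm7sf2 value is uncertain. Vps51, which is no member, had 1234 and 1226 in the induced libraries and 1114 and 1105 in the controls (0.15, adjusted p = 0.361). Sc5d, the sterol desaturase, and Ebp, the sterol isomerase, stood at 90.2% and 94.9% (adjusted p = 0.332 and 0.646), and Ebp alone of the 11 overlapped between groups, with 1876 and 1755 in the induced libraries and 1856 and 1969 in the controls.

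Taking the 18 enzymes of both stretches, all 18 had a log2 fold change below 0, 6 fell, and the median was -0.49. Induced replicate 2 was below induced replicate 1 in 15 of the 18, and control replicate 1 below control replicate 2 in 14. The same orders held in 7 and 5 of the 12 fatty acid genes and in 28 and 24 of the 40 tested members, and no test was made of them. Their sum was 69989 and 61984 in the induced libraries and 90434 and 96658 in the controls, and the induced mean was 70.5% of the control mean.

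**Figure D2:**
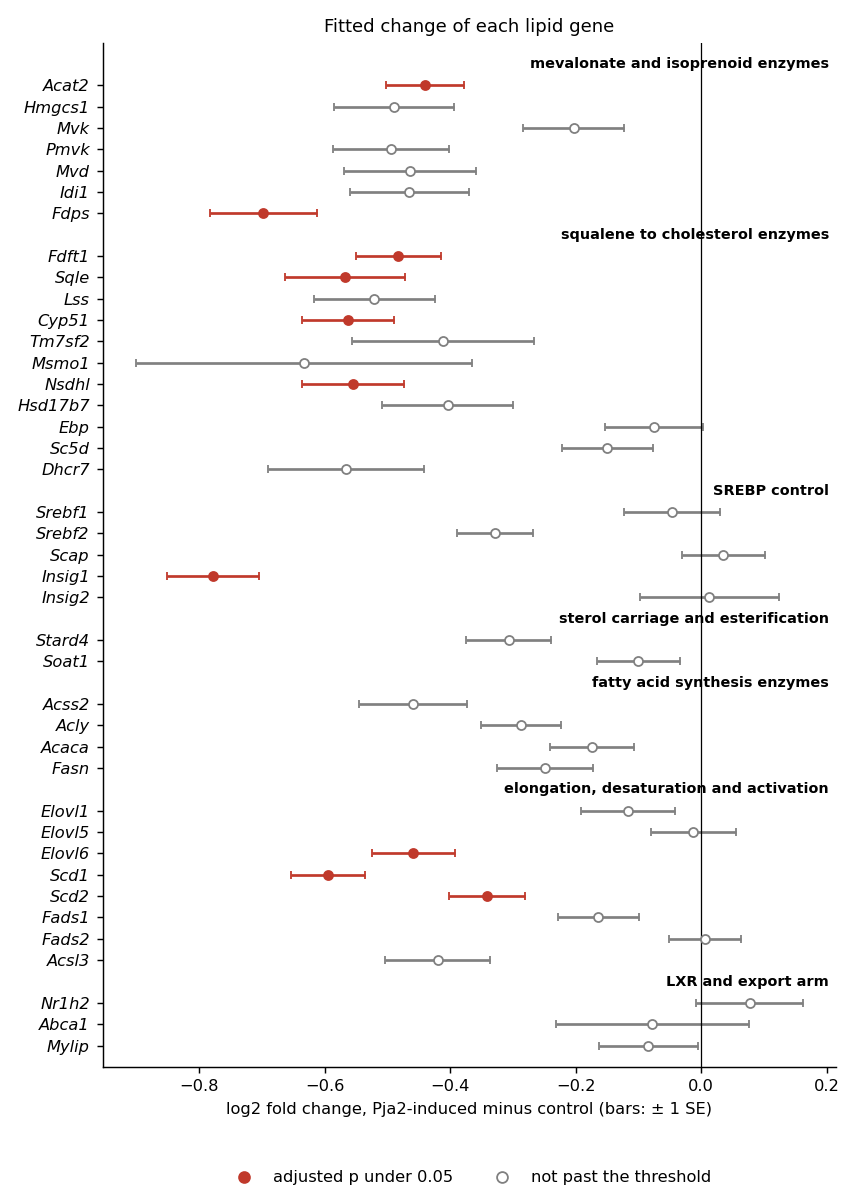
Log2 fold change (Pja2-induced minus control, x axis) of the 40 tested members by role (y axis), with bars of 1 SE from limma. Filled points are the 10 members past the threshold, all left of 0, from Insig1 at -0.78 to Scd2 at -0.34.

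Among the 5 SREBP control genes 1 fell, 4 did not pass and 3 lay below 0. Insig1, an anchor protein that is itself an SREBP target, had 3779 and 3403 normalized reads in the induced libraries and 6134 and 6168 in the controls (-0.78, SE 0.07, adjusted p = 0.0102). Its induced mean was 58.4% of the control mean, and the call held in each of 10 alternative fits. Insig2, the other anchor gene, had 3081 and 2484 in the induced libraries and 2733 and 2749 in the controls, so that the induced libraries lay on both sides of the controls (0.01, SE 0.11, adjusted p = 0.960). The ratio of Insig1 to Insig2 reads was 1.23 and 1.37 in the induced libraries and 2.24 in both controls.

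Srebf2, which encodes the SREBP most tied to sterol synthesis, had 11689.5 and 11687 in the induced libraries and 15106 and 14254 in the controls, 79.6% of the control mean, and lay at the edge of the threshold (-0.33, SE 0.06, adjusted p = 0.0509). The induced libraries nearly coincided and both lay below the controls. Srebf1, which encodes the SREBP most tied to fatty acid synthesis, had 2275 and 2074 in the induced libraries and 2242 and 2245 in the controls (-0.05, adjusted p = 0.787), and the groups overlapped. Scap, the escort protein of the SREBPs, had 2696 and 2821 in the induced libraries and 2705 and 2676 in the controls (0.04, adjusted p = 0.815). The ratio of Srebf2 to Srebf1 reads was 5.14 and 5.64 in the induced libraries and 6.74 and 6.35 in the controls.

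Neither of the 2 genes of sterol carriage and esterification passed. Stard4, a cytosolic sterol carrier, had 3867 and 3581 in the induced libraries and 4589 and 4615 in the controls (-0.31, adjusted p = 0.0804). Soat1, which esterifies cholesterol for storage, had 4686 and 4375 in the induced libraries and 4795 and 4913 in the controls (-0.10, adjusted p = 0.468). In both genes the induced libraries were the lower ones, which 25.1% of all genes showed.

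None of the 4 fatty acid synthesis enzymes passed. All 4 had log2 fold changes below 0 (-0.46 to -0.17), with both induced libraries below both controls, which 25.1% of all genes showed. Acss2, which makes acetyl-CoA from acetate, had 814 and 835 in the induced libraries and 1168 and 1101 in the controls (-0.46, SE 0.09, adjusted p = 0.0536). Acly, which makes it from citrate, had 12502 and 13102 against 15129 and 16122 (-0.29, adjusted p = 0.0836). Fasn, the fatty acid synthase, stood at 84.3% of its control mean (adjusted p = 0.169) and Acaca, the acetyl-CoA carboxylase that makes malonyl-CoA, at 88.7% (adjusted p = 0.245).

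Among the 8 genes of elongation, desaturation and activation 3 fell, 5 did not pass and 7 lay below 0, with a median of -0.25. Scd1, a stearoyl-CoA desaturase that makes monounsaturated fatty acids, had 6223 and 5981 in the induced libraries and 9162 and 9263 in the controls (-0.59, SE 0.06, adjusted p = 0.0105). Scd2, the desaturase that prevails in mouse brain, had 60471 and 59752 in the induced libraries and 76955 and 75387 in the controls (-0.34, SE 0.06, adjusted p = 0.0454). Both had replicates close together and groups well apart, and the ratio of Scd1 to Scd2 reads was 0.103 and 0.100 in the induced libraries and 0.119 and 0.123 in the controls. The desaturases are close relatives on the same chromosome and can share reads. Scd3 and Scd4 had at most 64.1 normalized reads in any library. Scd1 can also share reads with the far more abundant Scd2, so the changes of Scd1 and Scd2 may not be separate.

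Elovl6, which lengthens palmitate to stearate, had 2759 and 2640.3 in the induced libraries and 3654 and 3765 in the controls (-0.46, SE 0.07, adjusted p = 0.0280). Acsl3, an acyl-CoA synthetase linked to lipid droplets, had 3000.1 and 2659 in the induced libraries and 3887 and 3674 in the controls (-0.42, adjusted p = 0.0622). The elongase genes Elovl1 and Elovl5 stood at 92.2% and 99.2% of their control means (adjusted p = 0.457 and 0.938). Of the desaturases of polyunsaturated fatty acids, Fads1 had 11547 and 10822 in the induced libraries and 12805 and 12242 in the controls (-0.16, adjusted p = 0.253). Fads2, its neighbour, had 5734 and 5691 in the induced libraries and 5725 and 5647 in the controls (0.01, SE 0.06, adjusted p = 0.961), with the groups overlapping.

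The 12 fatty acid genes of both groups had a median log2 fold change of -0.27, against -0.49 for the 18 sterol enzymes. The sum of the 12 was 127366 and 128015 in the induced libraries and 157002 and 156462 in the controls, 81.5% of the control mean. Whether the sterol and fatty acid genes differ in their change was not tested.

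**Figure D3:**
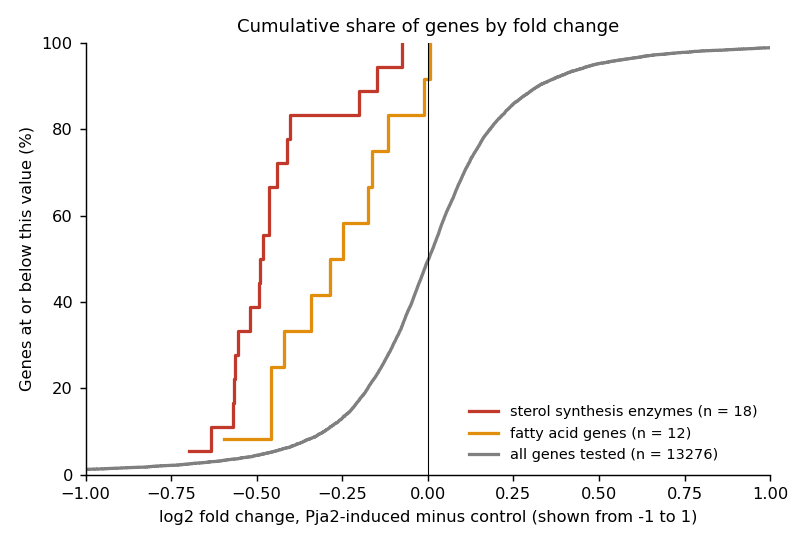
Cumulative share of genes (y axis, %) at or below each log2 fold change, Pja2-induced minus control (x axis, shown from -1 to 1), for the 18 sterol synthesis enzymes, the 12 fatty acid genes and all 13276 genes tested. The median is -0.49 for the sterol enzymes, -0.27 for the fatty acid genes and 0.00 for all genes.

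In the LXR export arm 3 of 5 members were tested and none passed, with an unadjusted p under 0.05 for 0 of them in either direction. Abca1, a cholesterol exporter and LXR target, had 936 and 1185 in the induced libraries and 1232 and 1003 in the controls (-0.08, SE 0.15, adjusted p = 0.826). Mylip, a ubiquitin ligase that degrades lipoprotein receptors, had 1554 and 1654 in the induced libraries and 1749 and 1650.3 in the controls (-0.08, adjusted p = 0.613). Nr1h2, which encodes LXR beta, had 1627 and 1800.1 in the induced libraries and 1662 and 1582 in the controls (0.08, adjusted p = 0.668). The groups overlapped in all of these.

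The other members of that arm lay near 0. Nr1h3, which encodes LXR alpha, had 0 and 8 reads in the induced libraries and 0 and 3 in the controls, and Abcg1, another exporter, had 3 and 0 reads in the induced libraries and 3 and 2 in the controls. They were not tested, and at this depth no difference could be detected. The sum over the arm was 4120.1 and 4646 in the induced libraries and 4648 and 4239.9 in the controls.

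**Figure D4:**
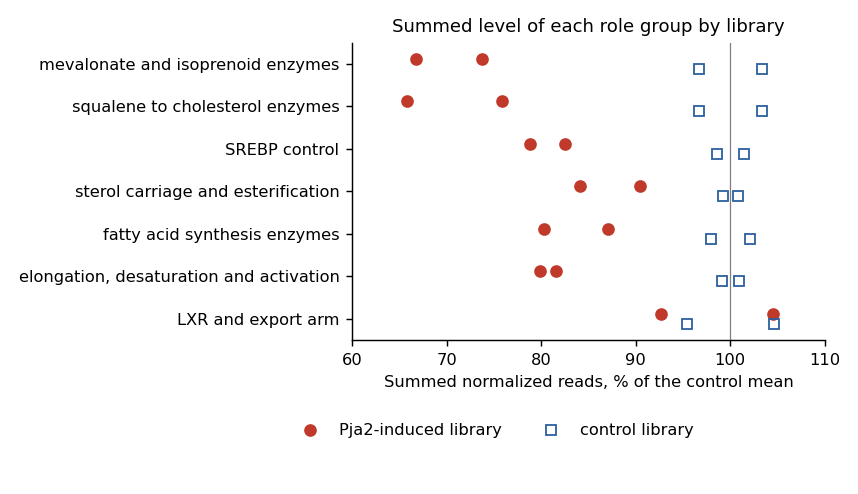
Summed normalized reads of each role group in each library, as percent of the mean of the 2 control libraries (x axis), by role group (y axis). Filled circles are Pja2-induced libraries and open squares control libraries; the induced mean is 70.2% for mevalonate and isoprenoid enzymes, 70.8% for squalene to cholesterol enzymes and 98.6% for the LXR and export arm.

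Levels of different members can be compared only per length, here as normalized reads per kilobase of exon (GENCODE M21). On that scale Scd2 led by far, with a mean level of 11001 in induced cells and 13941 in control cells, and Acat2 came next at 2838 and 3853. Hmgcs1 was at 2181 in induced cells and 3051 in control cells, Acly at 2425 and 2959.9, Fads1 at 2324 and 2603, and Fdps at 1673 and 2712, so that Fdps ranked 8 of 42 in induced cells and 5 of 42 in controls. Insig1 ranked 15 of 42 in induced cells and 10 of 42 in controls, at 1161 and 1989. At the other end lay Tm7sf2 at 48.5 and 64.5, and Nr1h3 and Abcg1 below 2. Exon lengths take every annotated exon as used, so the order is approximate.

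Of the 165 other lipid genes in 11 lists drawn up beside the members, 153 had a row and 137 were tested. Among these 2 fell and 2 rose, near the background of 1.34% lower and 2.08% higher. At an unadjusted p under 0.05, 20 were lower and 9 higher, against 8.78% and 10.3% of all genes. Both induced libraries lay below both controls in 49 of the 137 and above them in 22, against 25.1% and 26.2% of all genes. The median log2 fold change was -0.05, and 82 lay below 0, against 49.6% of all genes. Aacs, which makes acetoacetyl-CoA from acetoacetate for lipid synthesis, had 4831 and 4624 in the induced libraries and 6457 and 6198 in the controls (-0.42, SE 0.06, adjusted p = 0.0309). Scarb1, a scavenger receptor that takes up cholesterol from lipoproteins, had 3517 and 3524 in the induced libraries and 4888 and 4535 in the controls (-0.42, SE 0.07, adjusted p = 0.0364). Both lay below the controls in each induced library.

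Cpt1a, the carnitine transferase that admits fatty acids to mitochondrial oxidation, rose, with 7306 and 8138 in the induced libraries and 5195 and 5025 in the controls (0.59, SE 0.07, adjusted p = 0.0214). It was the 1 gene called among 18 tested genes of fatty acid oxidation. Their log2 fold changes ran from -1.39 to 0.59, with a median of -0.11. At an unadjusted p under 0.05 (limma), 5 of the 18 were lower and 1 higher, against 8.78% and 10.3% of all genes. Hadha and Hadh, dehydrogenases of that pathway, were at -0.08 and -0.23 on the log2 scale (adjusted p = 0.607 and 0.142). Pgd, a dehydrogenase of the pentose phosphate pathway that makes NADPH, rose, with 8918 and 9014 in the induced libraries and 6015 and 6896 in the controls (0.48, SE 0.08, adjusted p = 0.0405). Idh1 and Pdha1, of the same list of acetyl-CoA and NADPH supply, were at 0.22 and -0.14 (adjusted p = 0.172 and 0.314), and the median of its 10 tested genes was -0.07.

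The list of sterol uptake and intracellular transport had a median log2 fold change of -0.00 over 18 tested genes, and Lrp1, a lipoprotein receptor, and Npc2, a lysosomal sterol carrier, were at -0.01 and 0.03. The other 8 lists held no called member. Genes of SREBP processing and sterol-regulated degradation had a median of -0.00 over 14 tested, with the protease gene Mbtps1 and the coat gene Sec24d at -0.01 and 0.03. The isoprenoid branch had a median of -0.11 over 13, with Rabggtb, a prenyltransferase subunit, at -0.29 (adjusted p = 0.198) and Nus1, a dolichol synthesis gene, at -0.03. RXR partners and LXR targets had -0.11 over 10, with the corepressor gene Ncor1 at -0.14 (adjusted p = 0.294).

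Glycerolipid synthesis had a median of -0.12 over 12 tested genes, with the lipid droplet gene Plin3 at 0.08 and the acyltransferase gene Agpat3 at -0.24 (adjusted p = 0.580 and 0.297). Fatty acid activation and binding had -0.05 over 13, with the transporter gene Slc27a1 at -0.05 and the synthetase gene Acsl4 at 0.31 (adjusted p = 0.711 and 0.434). Oxysterol and bile acid enzymes had -0.08 over 6, with the cholesteryl ester hydrolase gene Nceh1 at -0.23 and the hydroxylase gene Cyp39a1 at 0.03 (adjusted p = 0.247 and 0.894). AMPK subunits and other lipid regulators had -0.03 over 11, with Sp1, a transcription factor, at -0.07 and Prkaa1, an AMPK catalytic subunit, at -0.03. Other elongases, desaturases and chain-extension enzymes had -0.06 over 12, with the reductase gene Tecr at 0.03. Fads3, the neighbour of Fads1 and Fads2, had 4701 and 4754 in the induced libraries and 3996 and 3850.3 in the controls (0.27, adjusted p = 0.0876).

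The number of members that fell was 6 without control replicate 1, 3 without control replicate 2, 8 without induced replicate 1 and 3 without induced replicate 2. When each library was left out in turn, Insig1, Scd1 and Fdps passed in each of the 4 fits, while Cyp51 passed in 2, Acat2, Sqle and Nsdhl in 1 each, and Fdft1, Elovl6 and Scd2 in 0 (adjusted p up to 0.0675 for Cyp51, 0.0953, 0.103 and 0.0865 for Acat2, Sqle and Nsdhl, and 0.0982, 0.106 and 0.261 for Fdft1, Elovl6 and Scd2). The log2 fold changes of all 10 stayed below 0 in each of these fits. Without the expression filter 2 members, Insig1 and Scd1, passed. Cpt1a passed in 2 of the 4 fits, Pgd in 1, and Scarb1 and Aacs in 0 (adjusted p up to 0.0568, 0.117, 0.120 and 0.123).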

How the data were processed

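The deposited table holds log2 values for 24689 genes in 4 libraries. Per the submitters' processing notes, HISAT, Cufflinks and the build mm9 were used; how reads were counted and scaled is not given in the sources used here. With 2 raised to each deposited log2 value and 1 subtracted, 100% of values were whole multiples of a step per library (tolerance 0.01), so the values are log2(normalized read count + 1), which understates changes of low genes. Fold changes were tested with limma 3.58.1 (R 4.3.3, trended variance prior, no covariate, two-sided) on those values over the 13276 genes that averaged 1 CPM or more, with Benjamini-Hochberg adjustment over all 13276 and a threshold of 0.05. This was the design set for log2 values. Log2 fold changes are induced minus control. The fit was also run on simulated data, with the same dispersion for all genes and planted changes larger than those of the members. That run does not show how changes as small as those of the members are called. Between replicates, chi-square per gene averaged 14.0 in induced and 18.3 in control libraries, more than counting noise gives.

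The members and lists were chosen with earlier results of these data known. Every member is accounted for; in each list of other genes, up to 4 called and 2 abundant uncalled members were eligible to be named. Exon overlaps come from GENCODE M21 and promoters from RefSeq, both on GRCm38, used for no coordinate of the mm9 data. Alternatives were other filters, total-read scaling, a pseudocount of 8, voom on recovered reads, a replicate block, each library left out and, chosen after seeing the data, members without overlapping exons.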

Additional observations from a re-analysis of the deposited data

How the results depend on the processing

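The 10 members lower in induced cells were the same 10 with the filter of 5 CPM, with a pseudocount of 8 and with voom, and total-read scaling added Lss and Pmvk to make 12. The count was 2 without the expression filter, 3 to 8 with 1 library left out and 5 of 26 tested members whose exons overlap no other gene; 0 were higher under each of these. Over all genes, 178 were lower and 276 higher, against 59 and 100 without the filter and 78 to 136 and 113 to 204 with 1 library left out. The other lipid genes gave 0 lower and 0 higher without the filter, and 0 to 3 lower and 0 to 2 higher with 1 library left out. The median log2 fold change of the members was -0.36 to -0.33 with 1 library left out and -0.27 without members with overlapping exons; fewer samples or genes stand behind each of these, and other causes were not tested.

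Both groups share replicate numbers, but the deviations of same-numbered libraries correlated at -0.095 across genes, so the numbers were not taken as pairs. With the replicate block, 4 members were lower, 104 genes were lower and 157 higher in all, and 0 and 1 of the other lipid genes were lower and higher. That fit has fewer residual degrees of freedom.

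Members near 0 changed sign with 1 library left out: Srebf1 ran from -0.11 to 0.020, Insig2 from -0.14 to 0.17, Elovl5 from -0.069 to 0.044, Fads2 from -0.0032 to 0.017 and Abca1 from -0.25 to 0.092, and Fads2 was at -0.00049 with total-read scaling. Pja2 ran from 3.14 to 3.21 and passed in each fit. With 2 libraries per group, 2 residual degrees of freedom limit the precision, and a member that missed the threshold is not shown to be unchanged.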
